A study of Mus musculus with 12 samples.

Results

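Mitochondrial ribosomal protein genes were described as the rows of the deposited table of log2 levels whose Entrez identifier maps to a mouse symbol that starts with Mrpl or Mrps and goes on with a digit. This rule, which uses names and no measured value, found 76 genes among 11786 rows, 48 named Mrpl and 28 named Mrps. Another 2 genes of the rule, Mrpl53 and Mrps34, were not analysed here. The study examined dendritic cells grown from bone marrow with GM-CSF and asked how their transcripts depend on Ythdf1, a cytoplasmic reader of N6-methyladenosine in RNA. Of 12 samples, 8 RNA-seq libraries in 4 groups of 2 were used, and the 4 RNA immunoprecipitation samples were not analysed here. The groups are wild-type cells alone, wild-type cells given tumor lysate, cells with the genotype label ythdf1-/- alone, and cells with that label given tumor lysate. The lysate was necrotic B16-OVA, melanoma cells of the mouse that make ovalbumin, and dendritic cells were purified after a night of culture with it. Whether each library had its own mouse or culture is not stated, and p-values therefore cover only the spread between these libraries, which may be technical. They give no age or sex of the mice and do not describe the allele.

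Mitochondria keep a ribosome of their own, which translates the few messenger RNAs of mitochondrial DNA, all of them for subunits of oxidative phosphorylation. Its protein subunits are encoded in the nucleus, made in the cytosol and imported, and they assemble on mitochondrially encoded ribosomal RNA into a small subunit that reads the message and a large subunit that joins amino acids. Some of the proteins descend from bacterial ribosomal proteins and others are found only in mitochondrial ribosomes, and their loss impairs respiration.

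By their place in the ribosome, 50 of the 76 genes encode large-subunit proteins, of which 30 have a bacterial homologue and 20 are specific to mitochondria. Another 25 encode small-subunit proteins, of which 16 have a bacterial homologue and 9 are specific to mitochondria. Mrps18a and Mrps30 carry small-subunit names but encode proteins of the large subunit and were counted there. Mrps36 is known as a subunit of the oxoglutarate dehydrogenase complex, a citric acid cycle enzyme, and was counted in neither subunit.

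The regions before the start sites of 4 members that passed the threshold in a comparison are shown because nuclear genes for mitochondrial proteins are known for sites of the activator NRF1 and of ETS-family factors in such regions. Sequences are from RefSeq, build GRCm38.p6, which is not the mm9 build that the submitters' processing notes name. All are on the plus strand, run 5′ to 3′ and end at the base before the annotated start. The Mrpl51 region is chr6:125192101-125192199, the Mrpl9 region chr3:94443186-94443335, the Mrpl36 region chr13:73330859-73331008 and the Mrpl24 region chr3:87919394-87919543. Capitals mark the ETS letters CCGGAAG in Mrpl51, the NRF1 letters (GCGCA, any base, GCGC) in Mrpl9, and both the E-box letters CACGTG and the YY1 letters, on the reverse strand, in Mrpl36. The Mrpl24 stretch holds none of these. Mrpl13 and Mrpl54, which also passed, had no start-site window. Mrps18b passed too and has the ETS letters in the window described below, but its region is not shown.
Mrpl51: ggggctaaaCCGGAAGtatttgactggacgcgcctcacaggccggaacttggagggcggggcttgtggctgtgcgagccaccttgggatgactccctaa
Mrpl9: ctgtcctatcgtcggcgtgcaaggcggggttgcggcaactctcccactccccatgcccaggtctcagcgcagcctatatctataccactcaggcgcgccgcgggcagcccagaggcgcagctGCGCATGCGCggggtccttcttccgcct
Mrpl36: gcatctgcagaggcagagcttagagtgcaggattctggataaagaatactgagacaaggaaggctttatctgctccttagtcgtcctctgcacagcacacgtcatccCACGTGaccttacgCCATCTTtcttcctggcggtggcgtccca
Mrpl24: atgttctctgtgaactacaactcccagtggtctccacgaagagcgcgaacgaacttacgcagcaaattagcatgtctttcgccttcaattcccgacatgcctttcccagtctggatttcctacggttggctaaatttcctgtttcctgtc

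Of the 76 members, 68 had a start-site window of 300 bases in RefSeq, reaching 250 bases before and 50 after the start. Letters were searched on both strands. The ETS letters CCGGAAG were in 24 of the 68 windows (35.3%), against 19.1% of the 9427 windows of all genes of the table and 33.8% of the 65 windows of cytosolic ribosomal protein genes. The NRF1 letters (GCGCA, any base, GCGC) were in 13 windows (19.1%), against 10.9% of all windows and 7.69% of the cytosolic ribosomal protein windows. The letters AAGATGG, the core of a site known for the factor YY1, were also in 13 windows (19.1%), against 7.57% of all windows and 13.8% of the cytosolic ribosomal protein windows. They can share the bases AAG with the ETS letters. The 65 cytosolic windows come from the 90 genes named Rpl or Rps and a digit. Kinases and pseudogenes with such names were not taken out of that set. The E-box letters CACGTG were in 5 windows (7.35%), against 10.4% of all, and CCAAT was in 26 (38.2%) against 39.2% of all. At least 1 of the NRF1, ETS, YY1 and E-box letters was in 43 of the 68 windows (63.2%), against 39.5% of all. These are letter matches, not bound sites.

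Many of these genes share a start region with a neighbour. In the GENCODE annotation, 17 of 76 members (22.4%) had a protein-coding neighbour on the opposite strand whose start lay within 1000 bases and which was transcribed away from them, against 1198 of 11283 genes of the table (10.6%). Mrpl51 starts 100 bases from Ncapd2, which encodes a condensin subunit, so the Mrpl51 stretch printed above lies between the starts of both genes. Mrps18b starts 45 bases from Ppp1r10, Mrpl54 26 bases from Apba3 and Mrpl49 59 bases from Fau, which encodes a fusion of a ubiquitin-like protein and cytosolic ribosomal protein S30. Exons of 25 members overlapped another annotated gene, for 14 of them a gene of the table. The library kit keeps the strand, per the labels' protocols, but no source used here gives the strand setting of the counting, so levels of genes that overlap on opposite strands are uncertain.

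Levels were compared between genes only per length, as the mean log2 level over the 8 libraries minus the log2 of the transcript length in kilobases. On that scale the 76 members lay between 4.41 and 10.57 with a median of 7.93, and 45 of them were above the median of all genes, 7.47. The cytosolic ribosomal protein genes had a median of 12.45 and the oxidative phosphorylation subunits of 10.15 on the same scale. The highest members per length were Mrps21 (10.57), Mrpl20 (9.91), Mrpl33 (9.71), Mrpl4 (9.57) and Mrpl30 (9.51). The lowest were Mrpl47 (4.41), Mrpl35 (5.29), Mrps25 (5.33), Mrpl19 (5.80) and Mrps26 (5.89). Large-subunit genes with a bacterial homologue had a median of 8.24 per length and those specific to mitochondria of 7.57. The corresponding medians of the small subunit were 7.91 and 6.60. The transcript in use was not measured, and annotated lengths ranged from 405 to 6073 bases with a median of 1095, so the order of the genes depends on the annotation.

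**Figure D1:**
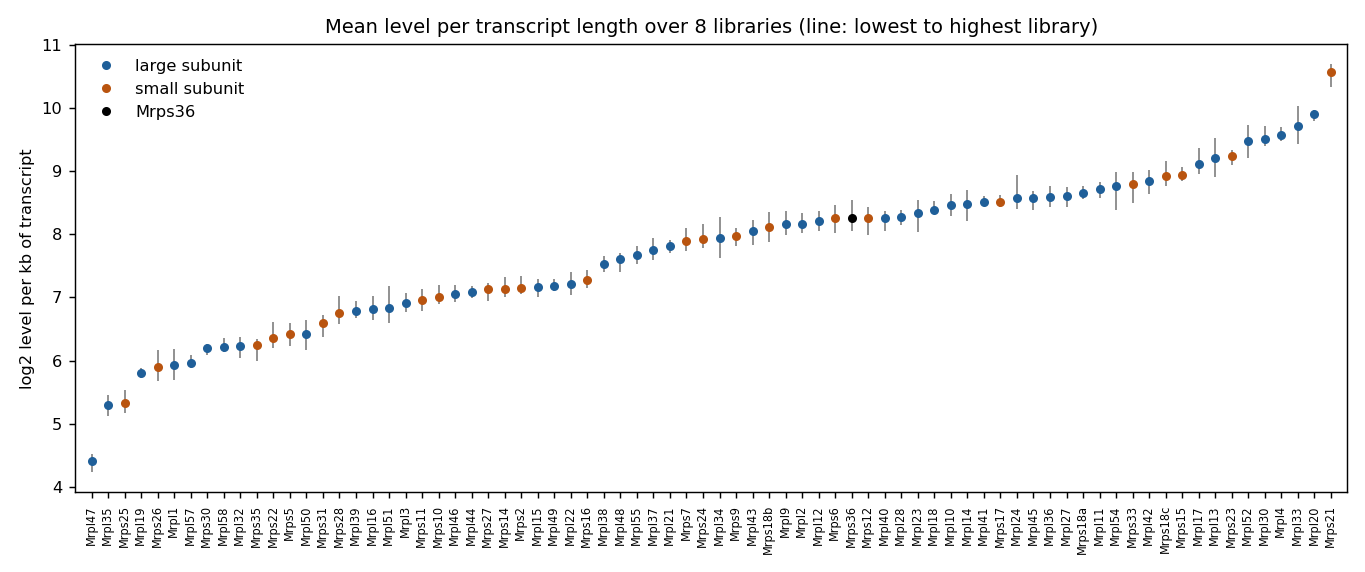
Mean log2 level per kilobase of annotated transcript for the 76 genes, ordered from low to high and coloured by subunit, with a line from the lowest to the highest of the 8 libraries. The genes span 4.41 to 10.57, while the spread over libraries of 1 gene is at most 0.65.

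The median range of a member over the 8 libraries was 0.34 on the log2 scale, against 0.39 over all genes, and 0 of 76 members had a range of 1 or more, against 255 of all genes. The range was smallest for Mrpl41 (0.16) and widest for Mrpl34 (0.65). The median standard deviation within a group was 0.086 for members and 0.083 for all genes, so the members' replicate spread was not below that of other genes. The median size of a member's change with lysate was 0.081 in wild type and 0.106 in the ythdf1-/- libraries, against 0.138 and 0.122 for all genes. In none of the 4 comparisons of a pair of groups did a member change by 0.5 or more on the log2 scale, a size that 434, 327, 372 and 228 of the 11785 genes reached.

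Libraries of 1 group differed in the level of the whole set. The mean level of the 76 members was 8.01 and 8.03 in wild type alone, 7.99 and 8.10 in wild type with lysate, 8.06 and 7.99 in ythdf1-/- alone, and 7.92 and 7.98 in ythdf1-/- with lysate. The first wild-type lysate library was below the second for 61 of 76 members, with a median difference of -0.12, while the median over all genes was 0.01. The first ythdf1-/- lysate library was below the second for 53 members, and the first ythdf1-/- library alone was below the second for 22. The widest gaps between libraries of 1 group were those of Mrps26 and Mrpl16 in wild type with lysate, 0.37 each, and of Mrpl34, 0.36 in ythdf1-/- alone and 0.35 in wild type alone.

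**Figure D2:**
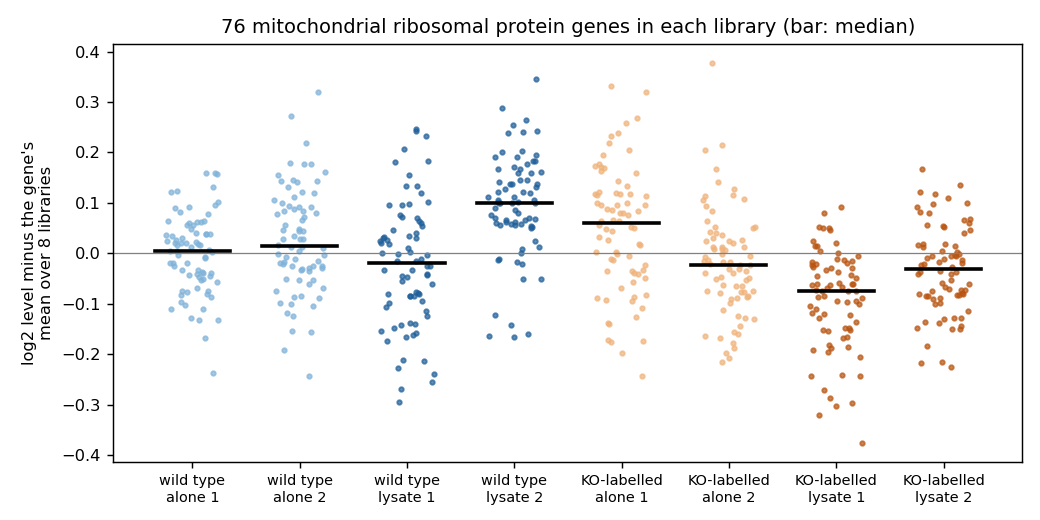
Each point is 1 of the 76 genes in 1 library, as its log2 level minus the mean of that gene over the 8 libraries, and bars mark the median of a library. The second wild-type lysate library sits above the first, by a median of 0.12 over the genes.

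Several features of the libraries were read beside the groups, and levels of some cell-type markers move with them. Ythdf1 itself was at 9.58 and 9.43 in wild type alone, 9.72 and 9.58 in wild type with lysate, 9.53 and 9.43 in ythdf1-/- alone and 9.51 and 9.46 in ythdf1-/- with lysate. It did not pass as lower in the ythdf1-/- libraries (log2 change -0.03, adjusted p = 0.850 alone; -0.16, adjusted p = 0.202 with lysate, limma with Benjamini-Hochberg adjustment), so directions by genotype below are those of libraries labelled ythdf1-/-. The labels do not say which part of the gene the allele lacks. Of 14 dendritic-cell markers 13 were measured, at a mean level of 12.35 and 12.43 in wild type alone, 12.04 and 12.10 with lysate, 12.54 and 12.47 in ythdf1-/- alone and 12.28 and 12.25 with lysate. With lysate 8 of the 13 were lower in each genotype label, and 1 was higher in ythdf1-/-. Between the labels 4 were higher and 2 lower alone, and 7 were higher with lysate. The shares of all genes that passed were 21.5% and 15.2% with lysate, in wild type and in ythdf1-/-. Between the labels they were 16.2% alone and 12.9% with lysate. Of 7 melanocyte and B16 markers 4 were measured (Dct, Tyrp1, Pmel and Mitf), and their mean level was 6.203 to 6.243 alone and 7.02 to 7.23 with lysate, while Tyr, Mlana and Sox10 were not analysed here. Of 8 neutrophil markers 7 were measured, with a mean level of 9.10 to 9.40 in wild type and 8.01 to 8.26 in the ythdf1-/- libraries. Macrophage and monocyte markers (9 of 9 measured) were at mean levels of 12.13 to 12.19 in wild type and 11.84 to 11.97 in the ythdf1-/- libraries. In the average over treatments 5 of the 9 were lower, while 13.7% of all genes were. Of 7 proliferation markers 6 were measured, at mean levels of 8.22 to 8.43 in wild type and 8.03 to 8.20 in ythdf1-/-, and Mki67 and Top2a were lower in that average, while none of 5 T and B cell markers was measured. The part of these other cells in the results below was not tested. In such bulk samples, fewer cells of a type and less RNA per cell cannot be told apart.

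With lysate in wild-type cells, 2 members rose and 1 fell of 76, all by less than 0.4 on the log2 scale. This is 3.95% of members, while 21.5% of the 11785 genes tested passed the same threshold, an adjusted p of 0.05 by limma with Benjamini-Hochberg adjustment (10.2% higher, 11.3% lower). The median change over members was 0.01, with 41 above and 35 below 0. The libraries of the groups did not overlap for 22 members that were higher and 11 that were lower with lysate, or 28.9% and 14.5% of members, against 28.5% and 32.3% of all genes. The median was -0.04 without the second wild-type lysate library and 0.09 without the first.

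Mrps18b, a small-subunit protein counted here as specific to mitochondria although its name comes from a likeness to bacterial S18, was at 7.56 and 7.69 alone and at 8.04 and 7.96 with lysate in wild type. It rose by 0.38 ± 0.087 (SE; adjusted p = 0.00826), a 1.30-fold change, with both lysate libraries above both others. In the ythdf1-/- libraries it was at 7.75 and 7.80 alone and 7.73 and 7.81 with lysate, which overlap (log2 change -0.01, adjusted p = 0.957). The difference between these lysate changes was -0.38 ± 0.122 and did not pass the threshold (adjusted p = 0.410). The rise in wild type did not pass without the first wild-type library alone (adjusted p = 0.0585) or without the first with lysate (0.0730). Its exons overlap those of an annotated antisense transcript, Gm16279, over 59.1% of their bases. Its head-to-head neighbour Ppp1r10 changed by -0.01 (adjusted p = 0.942).

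Mrpl51, a large-subunit protein specific to mitochondria, was at 8.68 and 8.61 in wild type alone and at 8.86 and 8.96 with lysate. It rose by 0.26 ± 0.085 (SE; adjusted p = 0.0417), with no overlap between the groups. Ncapd2, on the other side of the shared start region, changed by -0.16 (adjusted p = 0.176). The rise of Mrpl51 did not pass without any 1 of the 4 wild-type libraries or of the ythdf1-/- lysate libraries (adjusted p from 0.0525 to 0.221), and after removing the trend of the changes with transcript GC content and length it was 0.17 (adjusted p = 0.115). Mrpl13, a homologue of bacterial L13 in the large subunit, was at 9.16 and 9.21 alone and at 8.85 and 9.02 with lysate. It fell by 0.26 on the log2 scale (change -0.26 ± 0.084 SE, adjusted p = 0.0454), and both lysate libraries were below both others. The fall did not pass without either wild-type library alone, the first wild-type lysate library or either ythdf1-/- lysate library (adjusted p from 0.0775 to 0.294). It was also lost with median centring (0.0542), quantile normalization (0.0553), no mean-variance trend (0.0529) or only the groups compared (0.0508), and in all under 10 of the 19 alternatives run.

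The next members by size of change in wild type did not pass. Mrpl50, a large-subunit protein specific to mitochondria, was at 7.51 and 7.25 alone and 7.73 and 7.63 with lysate (0.30, adjusted p = 0.0517). Mrpl33, a small homologue of bacterial L33, was at 8.81 and 8.97 alone and 8.42 and 8.76 with lysate (-0.30, adjusted p = 0.0670). The groups did not overlap in either gene. Mrpl14, a homologue of bacterial L14, was at 7.93 and 8.06 alone and at 7.57 and 7.91 with lysate (-0.25, adjusted p = 0.134).

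**Figure D3:**
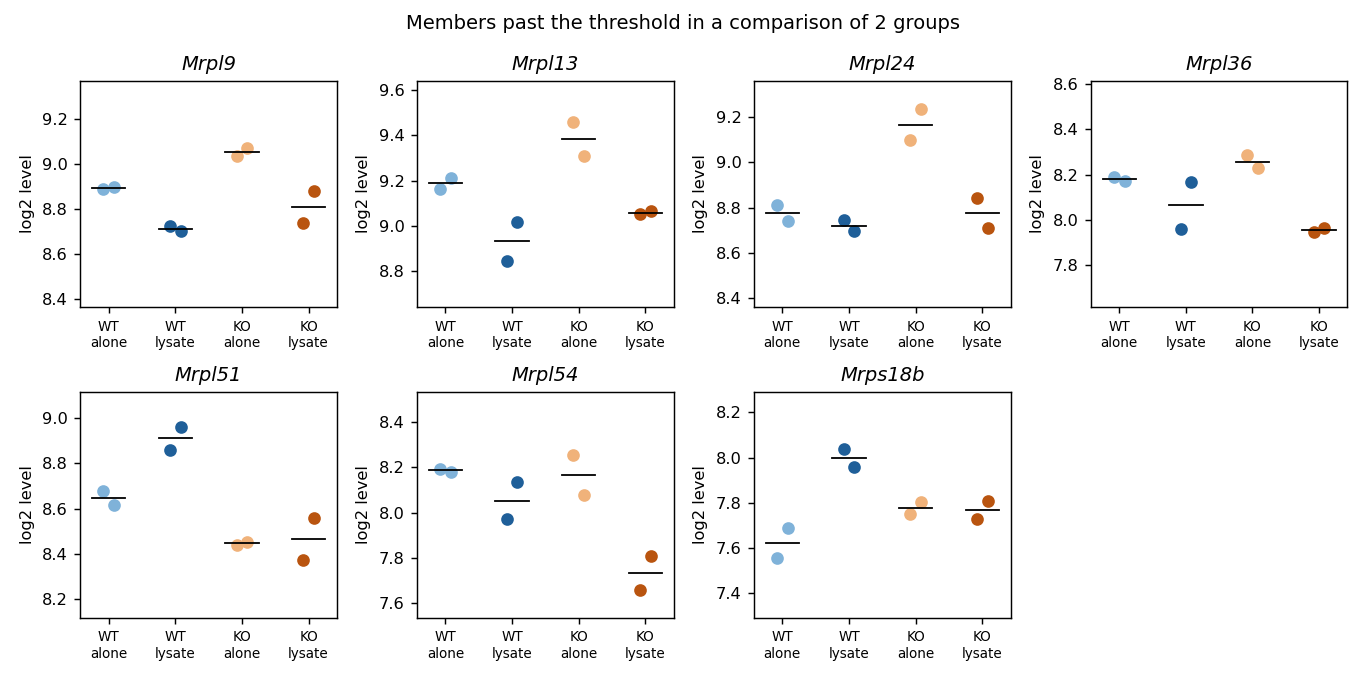
Log2 level of the 7 members that passed the threshold in a comparison of 2 groups, with 1 point per library, a bar at the group mean and panels that each span 1 log2 unit. Mrps18b and Mrpl51 are highest in wild type with lysate, and Mrpl24 is highest in the ythdf1-/- libraries alone.

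With lysate in the ythdf1-/- libraries, 5 members fell and 0 rose, and all 5 encode large-subunit proteins. The median change was nearly the same in both subunits, -0.080 over the 50 large-subunit genes and -0.076 over the 25 small-subunit genes. The 5 that fell make up 6.58% of members, while 15.2% of all genes passed (8.28% higher, 6.92% lower). At an unadjusted p of 0.05 by limma, 2 members were higher and 14 lower (2.63% and 18.4%), against 15% of all genes in each direction. The median change over members was -0.07, with 26 above and 50 below 0. The groups did not overlap for 6 members that were higher and 32 that were lower, or 7.89% and 42.1% of members, against 28.9% and 30.2% of all genes. The median change lay between -0.11 and -0.03 when 1 library was left out.

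Mrpl54, a large-subunit protein specific to mitochondria, was at 8.25 and 8.08 in ythdf1-/- alone and at 7.66 and 7.81 with lysate. It fell by 0.43 (change -0.43 ± 0.095 SE, adjusted p = 0.00866), with both lysate libraries below both others. In wild type it was at 8.19 and 8.18 alone and 7.97 and 8.13 with lysate (-0.13, adjusted p = 0.342). The difference between the lysate changes was -0.30 (adjusted p = 0.582). The fall did not pass without the first ythdf1-/- library alone (adjusted p = 0.0566) or the first with lysate (0.122). Apba3, which starts 26 bases away, changed by 0.11 (adjusted p = 0.549).

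Mrpl24, a homologue of bacterial L24, which binds ribosomal RNA early in assembly of the large subunit, was at 9.10 and 9.24 in ythdf1-/- alone and at 8.84 and 8.71 with lysate. It fell by 0.39 (change -0.39 ± 0.083 SE, adjusted p = 0.00686). In wild type it was at 8.81 and 8.74 alone and at 8.75 and 8.70 with lysate (-0.06, adjusted p = 0.674). Both ythdf1-/- libraries alone thus stood above the other 6 libraries. The difference between the lysate changes was -0.34 ± 0.117 and did not pass (adjusted p = 0.453). The fall did not pass without the second ythdf1-/- lysate library (adjusted p = 0.1001). Rrnad1, whose exons overlap 38.2% of the Mrpl24 exon bases on the opposite strand, changed by -0.09 (adjusted p = 0.476).

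Mrpl13, which also fell in wild type, was at 9.46 and 9.31 in ythdf1-/- alone and 9.05 and 9.07 with lysate (-0.33 ± 0.084, adjusted p = 0.0194). Mrpl36, a very small zinc-binding homologue of bacterial L36, was at 8.29 and 8.23 alone and at 7.95 and 7.96 with lysate (-0.30 ± 0.088, adjusted p = 0.0342). Mrpl9, a homologue of bacterial L9, was at 9.03 and 9.07 alone and at 8.74 and 8.88 with lysate (-0.25 ± 0.078, adjusted p = 0.0486). In each of these 3 genes both lysate libraries lay below both others. Mrpl13 and Mrpl36 did not pass without the first ythdf1-/- library alone (adjusted p = 0.137 and 0.136), the first with lysate (0.143 and 0.184) or the second with lysate (0.115 and 0.146), and Mrpl9 did not pass when any 1 of the 8 libraries was left out (from 0.0580 to 0.339). In wild type Mrpl36 changed by -0.12 (adjusted p = 0.370) and Mrpl9 by -0.18 (0.117). Among members that did not pass, Mrpl34 was at 7.55 and 7.19 alone and at 6.90 and 7.14 with lysate (-0.35 ± 0.136, adjusted p = 0.101), and its replicates lay further apart than those of most members. The most positive changes with lysate were those of Mrps22 (0.25, adjusted p = 0.0772), Mrps28 (0.22, 0.159) and Mrpl17 (0.18, 0.193).

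The lysate comparisons of the 2 genotype labels share no library. Over the 76 members their changes had a Pearson r of 0.69 and a Spearman rho of 0.74, as a description across genes, which are not independent replicates and share length and GC content. Of the members, 24 were above 0 in both, 33 below 0 in both, 17 above 0 in wild type and below 0 in ythdf1-/-, and 2 the other way.

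**Figure D4:**
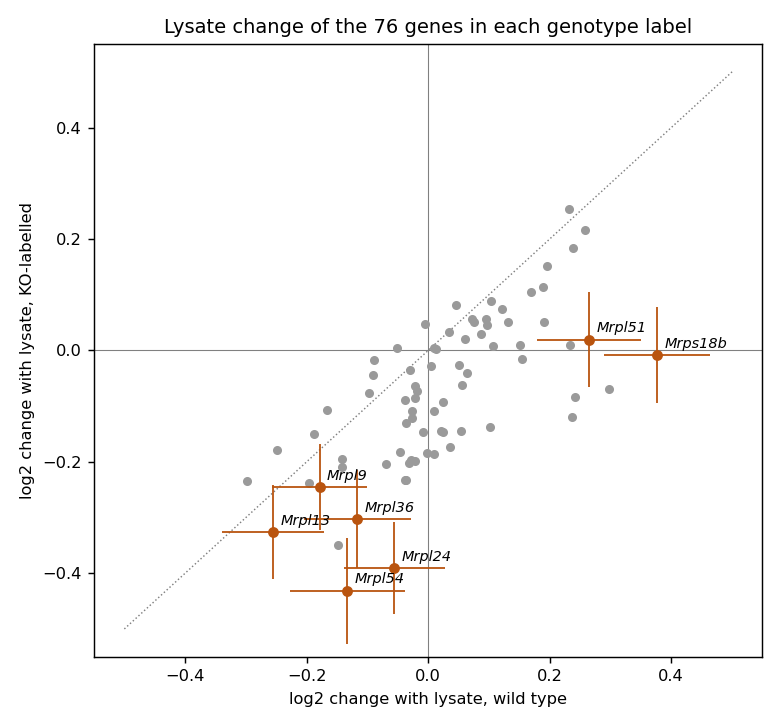
Log2 change with lysate in wild type (horizontal) and in the ythdf1-/- libraries (vertical) for the 76 genes, with standard errors for those that passed the threshold in either, and a dotted line of equal change. Most points lie below the line, at 65 of 76 genes, and Mrpl13 passed in both, with a wild-type call that was lost under 10 of the 19 alternatives run.

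The difference of the lysate changes was below 0 for 65 of 76 members and above 0 for 11, with a median of -0.08. The skew was not particular to the members. Cytosolic ribosomal protein genes, described below, were below 0 for 63 of 77, with a median of -0.09. Oxidative phosphorylation genes were below 0 for 55 of 79, with a median of -0.04, and all genes for 5856 of 11785. After removing a trend with GC content and length, 57 members were below 0. No member passed by limma (0 higher, 0 lower), and 6 were lower (7.89%) and 0 higher at an unadjusted p of 0.05, against 2.9% and 5.4% of all genes. Over all genes 13 of 11785 passed, or 0.11%, all of them higher (0.11% higher, 0% lower). The most negative differences were those of Mrps18b (-0.38), Mrpl50 (-0.37, adjusted p = 0.503) and Mrps5 (-0.36, adjusted p = 0.458). The most positive were those of Mrpl14 and Mrpl28, 0.07 each, and Mrpl33, 0.06. Mrps5, a homologue of bacterial S5, was at 7.62 and 7.61 in wild type alone, 7.89 and 7.81 with lysate, 7.73 and 7.76 in ythdf1-/- alone and 7.72 and 7.52 with lysate. Without the second wild-type lysate library the median difference was -0.01, and without the first it was -0.15.

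Between the genotype labels without lysate, 1 member was higher in the ythdf1-/- libraries and 0 were lower. This is 1.32% of members, while 16.2% of all genes passed (7.02% higher, 9.23% lower). At an unadjusted p of 0.05 by limma, 4 members were higher and 2 lower (5.26% and 2.63%), against 13.6% and 15% of all genes. The median was -0.02, with 34 members above and 42 below 0. The groups did not overlap for 15 members that were higher and 16 that were lower, or 19.7% and 21.1% of members, against 26.4% of all genes in either direction. The gene that passed was Mrpl24, 0.39 ± 0.083 higher in ythdf1-/- (adjusted p = 0.00572), at the levels given above. Its call was kept under each of the 19 alternatives run, with changes from 0.32 to 0.46. Rrnad1 on the opposite strand differed by 0.21 (adjusted p = 0.0925).

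The next members by size between the genotype labels without lysate did not pass. Mrps6, a small-subunit homologue of bacterial S6, was at 7.90 and 7.91 in wild type and 8.11 and 8.23 in ythdf1-/- (0.26, adjusted p = 0.0723). Mrps7, which lies in the head of the small subunit, was at 8.79 and 8.84 in wild type and 9.07 and 9.01 in ythdf1-/- (0.23, adjusted p = 0.0564). The groups did not overlap in either gene. The deepest values relative to wild type were those of Mrpl33 and Mrpl27, -0.21 each (adjusted p = 0.220 and 0.150), and Mrpl51, -0.20.

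Between the genotype labels with lysate, 2 members were lower in the ythdf1-/- libraries and 0 were higher. They are 2.63% of members, while 12.9% of all genes passed (7.44% higher, 5.45% lower). At an unadjusted p of 0.05 by limma, 13 members were lower and 0 higher (17.1% and 0%), against 14.1% and 15.2% of all genes. The median was -0.11, with 11 members above and 65 below 0. The groups did not overlap for 7 members that were higher and 32 that were lower, or 9.21% and 42.1% of members, against 29.6% and 31% of all genes. This median moved with 1 library: it was -0.03, with 31 members above and 45 below 0, without the second wild-type lysate library, and -0.18 without the first. By class, the median was -0.10 in both large-subunit classes, -0.09 in the small-subunit genes with a bacterial homologue and -0.18 in the 9 specific to mitochondria, with no test of the difference.

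Mrpl51 was at 8.86 and 8.96 in wild type with lysate and at 8.37 and 8.56 in ythdf1-/- with lysate. It was lower by -0.44 ± 0.085 (adjusted p = 0.00515), a fold of 0.74, with no overlap between the groups. Alone, it was at 8.68 and 8.61 in wild type and at 8.44 and 8.45 in ythdf1-/- (-0.20, adjusted p = 0.139), also with no overlap, so that all 4 ythdf1-/- libraries lay below all 4 wild-type libraries. With lysate the call was lost without the second wild-type library (adjusted p = 0.0502) or the first ythdf1-/- library (0.120). Ncapd2 differed by -0.05 with lysate (adjusted p = 0.740). Mrpl54 was lower by -0.32 ± 0.095 with lysate (adjusted p = 0.0422), at the levels given above, and the groups did not overlap. Its call was lost without any 1 of the 4 lysate libraries (adjusted p from 0.0634 to 0.336). Mrpl23, a homologue of bacterial L23 at the tunnel exit of the large subunit, was at 7.84 and 8.004 in wild type and 7.51 and 7.75 in ythdf1-/- with lysate (-0.29, adjusted p = 0.117). On the higher side, Mrps6 (0.20, adjusted p = 0.174), Mrpl10 (0.15, 0.240) and Mrps9 (0.13, 0.314) did not pass.

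The genotype comparisons alone and with lysate share no library either. Over the 76 members their values had a Pearson r of 0.55 and a Spearman rho of 0.45, as a description across genes. Of the members, 11 were above 0 in both and 42 below 0 in both, 23 were above 0 alone and below 0 with lysate, and 0 the other way.

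Averaging over the genotype labels uses all 8 libraries for the effect of lysate. Then 4 members rose and 8 fell, 15.8% of members, while 34.7% of all genes passed (16.5% higher, 18.2% lower), and the median was -0.04. Those that rose were 3 small-subunit genes and 1 large-subunit gene, and the 8 that fell all encode large-subunit proteins. The median was -0.044 over the 50 large-subunit genes and -0.012 over the 25 small-subunit genes, with no test of the difference. Mrps22, a small-subunit protein specific to mitochondria, was at 6.54 and 6.54 in wild type alone, 6.68 and 6.87 with lysate, 6.45 and 6.48 in ythdf1-/- alone and 6.70 and 6.73 with lysate. All 4 lysate libraries stood above all 4 others (0.24 ± 0.064, adjusted p = 0.0107). Mrps28 was at 6.24 and 6.38, 6.48 and 6.66, 6.31 and 6.22, and 6.42 and 6.54 in the same order of groups (0.24 ± 0.070, adjusted p = 0.0184), again with no overlap. Mrpl17, a homologue of bacterial L17, rose by 0.21 ± 0.064 (adjusted p = 0.0217) and Mrps18b by 0.18 (adjusted p = 0.0328).

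On the lower side of the same average, Mrpl13 had the smallest p (-0.29 ± 0.059, adjusted p = 0.00235). Its 4 lysate libraries, at 8.85 to 9.07, lay below the 4 others, at 9.16 to 9.46. Mtbp, whose exons overlap 26.98% of the Mrpl13 exon bases on the opposite strand, changed by -0.06 (adjusted p = 0.519). Mrpl54 (-0.28, adjusted p = 0.00599), Mrpl9 (-0.21, 0.00952), Mrpl24 (-0.22, 0.0102) and Mrpl36 (-0.21, 0.0194) also fell. So did Mrpl33 (-0.27 ± 0.077, adjusted p = 0.0172), Mrpl10, which joins the factor-binding stalk to the large subunit (-0.17 ± 0.056, 0.0332), and Mrpl45, which lies near the tunnel exit at the inner membrane (-0.18 ± 0.063, 0.0439).

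Of these 12 average calls, those of Mrps22, Mrpl13 and Mrpl54 were kept when any 1 library was left out. Without the first ythdf1-/- lysate library the adjusted p was over 0.05 for Mrps18b (0.0592), Mrpl9 (0.0594), Mrpl36 (0.0674), Mrpl33 (0.0922), Mrpl10 (0.140) and Mrpl45 (0.166). Without the second it was over 0.05 for Mrpl36 (0.0588), Mrpl24 (0.0623), Mrpl45 (0.0712), Mrps28 (0.0800), Mrpl17 (0.102) and Mrps18b (0.116). Without the first wild-type lysate library this held for Mrpl33 (0.0822), Mrpl36 (0.0848), Mrpl10 (0.0860), Mrps18b (0.102) and Mrpl45 (0.179), and without the second for Mrpl10 (0.0539), Mrps28 (0.0725) and Mrpl17 (0.0869). Without the first wild-type library alone it held for Mrps28 (0.0645), Mrpl45 (0.0905) and Mrps18b (0.110), and without the second for Mrpl33 (0.0649), Mrpl17 (0.0689), Mrpl45 (0.0750) and Mrpl10 (0.122). Without the first ythdf1-/- library alone it held for Mrps18b (0.0812), Mrpl10 (0.0922) and Mrpl45 (0.0930).

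Averaged over treatments, 3 members were higher and 2 lower in the ythdf1-/- libraries, 6.58% of members, while 27.4% of all genes passed (13.7% in each direction), and the median was -0.06. Mrpl51 was lower by -0.32 ± 0.060 (adjusted p = 0.00145) and kept its call when any 1 library was left out. Mrps25, a small-subunit protein specific to mitochondria, was at 7.95 and 8.02 in wild type alone, 8.14 and 8.05 with lysate, 7.84 and 7.80 in ythdf1-/- alone and 7.78 and 7.88 with lysate (-0.21 ± 0.059, adjusted p = 0.0172). All 4 ythdf1-/- libraries lay below all 4 wild-type libraries, and 58.2% of its exon bases overlap Nr2c2 on the opposite strand, which differed by -0.04 (adjusted p = 0.616). The Mrps25 call was lost without the second wild-type library alone (0.0558), the first wild-type lysate library (0.0609) or the first ythdf1-/- lysate library (0.0882).

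On the higher side of that average, Mrpl24 was at 0.22 (adjusted p = 0.0119), Mrps6 at 0.23 ± 0.065 (0.0187) and Mrps7 at 0.16 ± 0.054 (0.0392). All 4 ythdf1-/- libraries of Mrps6 and of Mrps7 lay above all 4 of wild type, while the lysate libraries of Mrpl24 overlapped. Exons of Mrps7 overlap those of Gga3 and Mif4gd on the opposite strand, over 6.47% and 6.07% of its exon bases, and both were higher in the same average (0.33, adjusted p = 0.000355, and 0.30, adjusted p = 0.00217). Slc5a3, which overlaps 18.8% of the Mrps6 exon bases on the same strand, was at 0.08 (adjusted p = 0.427). The Mrpl24 call was lost without the first ythdf1-/- lysate library (0.0791). The Mrps6 call was lost without either ythdf1-/- lysate library (0.0591 and 0.0702) or the first wild-type lysate library (0.0784). The Mrps7 call was lost without either wild-type library alone (0.108 and 0.0598), the first wild-type lysate library (0.118), the first ythdf1-/- library alone (0.104) or either ythdf1-/- lysate library (0.105 and 0.116). Rrnad1, which overlaps Mrpl24, was higher by 0.23 in the same average (adjusted p = 0.00811).

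Cytosolic ribosomal protein genes, for the ribosome outside mitochondria, were set beside the members. So were genes of the nucleus for oxidative phosphorylation subunits, whose messenger RNAs mitochondrial ribosomes do not translate. Of 77 cytosolic ribosomal protein genes, 8 fell with lysate in wild type (10.4%) and 32 in the ythdf1-/- libraries (41.6%), with medians of -0.13 and -0.24. Of 79 oxidative phosphorylation genes, 2 rose and 2 fell in wild type, and 1 rose and 5 fell in the ythdf1-/- libraries, with medians of -0.02 and -0.05. The shares of all genes that passed were 21.5% and 15.2%. Between the genotype labels with lysate, 2 cytosolic ribosomal protein genes and 6 oxidative phosphorylation genes were lower, with medians of -0.09 and -0.13, beside the 2 members and their median of -0.11. The second wild-type lysate library was above the first in the mean level of all 3 sets, at 11.83 against 11.58 for the cytosolic ribosomal proteins, 9.68 against 9.46 for oxidative phosphorylation and 8.10 against 7.99 for the members. The difference between these sets was not tested. Fau, which shares its start region with Mrpl49, fell with lysate in both genotype labels (-0.41, adjusted p = 0.00559, and -0.49, adjusted p = 0.00247), while Mrpl49 passed in neither.

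**Figure D5:**
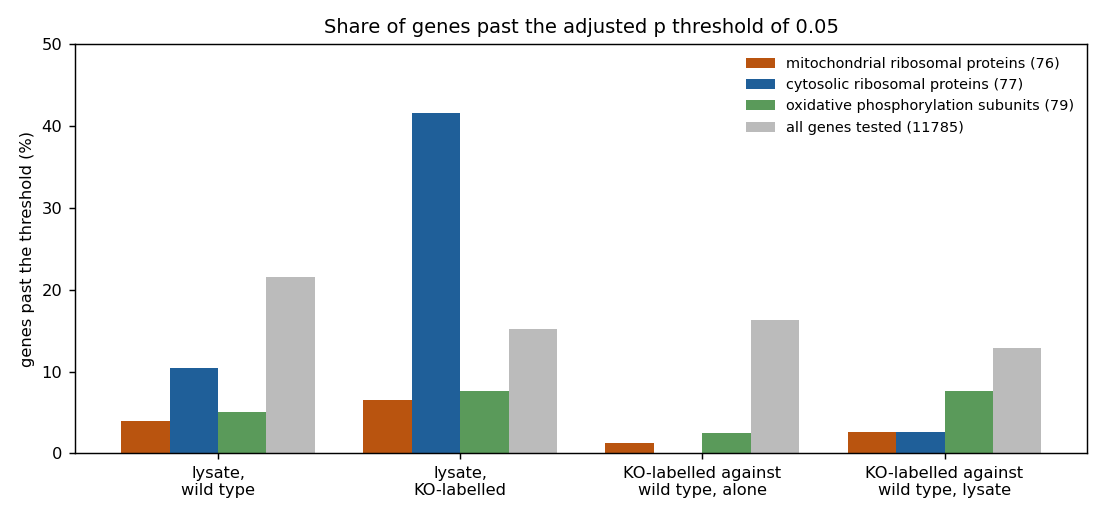
Percentage of genes past the threshold in each of the 4 comparisons, for the 76 members, the 77 cytosolic ribosomal protein genes, the 79 oxidative phosphorylation genes and all 11785 genes tested. The members' bars are 3.95%, 6.58%, 1.32% and 2.63%, each below the bar of all genes, and the tallest bar is that of the cytosolic ribosomal proteins with lysate in the ythdf1-/- libraries (41.6%).

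Mitochondrial ribosomal proteins with other names were read from a fixed list of 5. Dap3, a GTP-binding protein of the small subunit, was at 9.36 and 9.41 in wild type alone, 9.21 and 9.39 with lysate, 9.78 and 9.69 in ythdf1-/- alone and 9.65 and 9.51 with lysate. It was higher in the ythdf1-/- libraries alone (0.35 ± 0.084, adjusted p = 0.0120) and with lysate (0.28 ± 0.084, adjusted p = 0.0440), with no overlap in either. Aurkaip1, also of the small subunit, fell with lysate in the average over genotype labels (-0.17, adjusted p = 0.0356). Ptcd3, Chchd1 and Gadd45gip1 passed in none of the comparisons, and their changes with lysate in wild type were 0.09, 0.20 and -0.02.

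Of 21 measured genes listed for mitochondrial translation, 3 passed with lysate in wild type, 2 of them higher, and 1 fell in the ythdf1-/- libraries. These are 14.3% and 4.76% of the list, while 21.5% and 15.2% of all genes passed. The list is wider than translation factors alone. Gfm1, an elongation factor, was at 8.66 and 8.55 alone and 8.91 and 8.81 with lysate in wild type and rose by 0.25 (adjusted p = 0.0417). Mrrf, the ribosome recycling factor, rose by 0.26 (adjusted p = 0.0418). Tmem223 fell by 0.36 in both genotype labels (changes -0.36, adjusted p = 0.0135 and 0.0171). Between genotype labels, Mief1, whose main product is not a translation factor, was lower alone (-0.26), and 0 of the 21 passed with lysate.

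Of 29 measured assembly and ribosomal RNA modification factors, 4 passed with lysate in wild type, 2 in each direction, and 1 rose and 3 fell in the ythdf1-/- libraries. This is 13.8% of the list in each, while 21.5% and 15.2% of all genes passed. Mterf4, which with the methyltransferase Nsun4 is needed to assemble the mitochondrial ribosome, was at 9.85 and 9.81 in wild type alone, 9.37 and 9.34 with lysate, 10.44 and 10.45 in ythdf1-/- alone and 10.09 and 9.88 with lysate. It fell with lysate in wild type (-0.47 ± 0.078, adjusted p = 0.00117) and in ythdf1-/- (-0.46 ± 0.078, adjusted p = 0.00180). It was higher in ythdf1-/- alone (0.62 ± 0.078, adjusted p = 0.000189) and with lysate (0.63 ± 0.078, adjusted p = 0.000374), the 1 assembly factor past the threshold between genotype labels in each treatment. Nsun4 fell with lysate in wild type (-0.34, adjusted p = 0.0190) and was at -0.22 in ythdf1-/- (adjusted p = 0.136).

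Of 20 mitochondrial aminoacyl-tRNA synthetases, which charge mitochondrial transfer RNAs, 4 passed with lysate in wild type, 3 of them lower, and 1 fell in ythdf1-/-. These are 20% and 5% of the list, while 21.5% and 15.2% of all genes passed. Lars2, for leucine, was listed at 16.49 and 16.67 in wild type alone, 15.62 and 16.09 with lysate, 15.73 and 15.58 in ythdf1-/- alone and 15.38 and 15.35 with lysate. It fell with lysate in wild type (-0.73 ± 0.120, adjusted p = 0.00111) and was lower in ythdf1-/- alone (-0.93 ± 0.120, adjusted p = 0.000202) and with lysate (-0.49 ± 0.120, adjusted p = 0.0179). Ears2, for glutamate, was higher in ythdf1-/- alone (0.35, adjusted p = 0.0222) and with lysate (0.40, adjusted p = 0.0140). Over the 8 libraries Ears2 lay at 9.41 to 10.15, far below Lars2, though neither level is per length. Whether the reads listed under Lars2 all come from its messenger RNA was not tested. Of 26 genes of mitochondrial transcription and messenger RNA handling, 5 passed with lysate in wild type, 3 of them higher, and 1 rose in ythdf1-/-. These are 19.2% and 3.85% of that list, beside the same shares of all genes. Pnpt1, a polynucleotide phosphorylase, rose by 0.50 in both (adjusted p = 0.00278 and 0.00353). Polg, the catalytic subunit of the mitochondrial DNA polymerase, fell in wild type (-0.49, adjusted p = 0.00237).

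The changes of members were set against transcript GC content and length. With lysate in wild type the Spearman rho of a member's change with its transcript GC content was -0.36 over the 76 members and -0.38 over all genes, and in ythdf1-/- it was -0.35 and -0.27. The rho with transcript length was 0.26 for members and 0.02 for all genes in wild type, and 0.23 and 0.16 in ythdf1-/-. Between genotype labels the rho with GC content was 0.26 for members and 0.07 for all genes alone, and 0.22 and 0.23 with lysate. For the difference of the lysate changes it was -0.05 for members and 0.18 for all genes. These are descriptions across genes, with no test.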

How the data were processed

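RNA-seq libraries of mouse dendritic cells were made with a stranded poly(A) kit, per the labels' protocols. The deposited values are log2 levels per Entrez gene, read as made by the authors with the regularized logarithm of DESeq2. That reading rests on the table's name and on the submitters' processing notes, which name DESeq2, STAR, deepTools and mm9. No source used here gives versions, the counter, its strand setting, the annotation or the gene filter. Without counts the depth per library is unknown, no counting error can be given, and the changes of genes with few reads are understated. Values lay between 3.24 and 17.88, with library medians between 8.53 and 8.55.

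Symbols were found for 11744 of 11786 rows. Transcript length and GC content, medians over protein-coding transcripts of GENCODE vM21, were found for 99.4% of rows and all 76 members. The deposited log2 values were fitted with limma 3.58.1 (R 4.3.3) with a mean-variance trend, 1 mean for each of the 4 groups, and 4 residual degrees of freedom. Genes needed a largest group mean of at least 4, which removed 1 gene and no member. Two-sided p-values were adjusted over all 11785 genes by Benjamini-Hochberg at 0.05. The fit was tested on simulated data. Named members were those past the threshold, the 3 largest changes each way in a comparison, the 5 highest and 5 lowest per length, and the widest replicate gaps. Genes of the pathway lists were named by smallest p among those past the threshold. The members and lists were chosen with earlier results of these data known. Kinases and pseudogenes were taken out of the cytosolic list after their names were seen. The alternatives tried are a replicate block, other filters, centring, quantile normalization, no trend, a robust fit, only the groups compared, thresholds of 0.01 and 0.10, removal of a GC and length trend, and leaving out each library.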

Additional observations from a re-analysis of the deposited data

How the results depend on the processing

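Leaving out 1 library at a time gave 1 to 3 members higher and 0 to 3 lower with lysate in wild type (median -0.0421 to 0.0910), and 0 higher and 1 to 7 lower in ythdf1-/- (median -0.113 to -0.0343). Between genotype labels it gave 1 higher and 0 lower alone (median -0.0409 to 0.0335), and 0 higher and 0 to 4 lower with lysate (median -0.176 to -0.0285). For the difference it gave 0 each way (median -0.155 to -0.0133). For the averages it gave 1 to 5 higher and 3 to 12 lower for lysate (median -0.0601 to 0.0045), and 0 to 4 higher and 1 to 7 lower for genotype (median -0.10 to -0.02). A library left alone in its group was taken to vary like the others. Without either ythdf1-/- lysate library, fewer of all genes passed than in the main fit, in every comparison. Leaving out some other libraries lowered or raised the calls over all genes, depending on the comparison. A call lost with 1 library left out is therefore not particular to the members.

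Same-numbered replicates did not deviate together throughout (correlations over all genes from -0.61 to 0.26), so the numbers do not pair the libraries. The -0.61 lay between wild type alone and ythdf1-/- alone, whose same-numbered replicates deviated in opposite directions. The main fit has no term for spread shared between groups. With a replicate block, members higher and lower with lysate in wild type were 1 and 0 (from 2 and 1). Members lower were 3 (from 5) with lysate in ythdf1-/- and 1 (from 2) between genotype labels with lysate. Of all genes, the block called 16.9% (from 21.5%), 11.9% (from 15.2%) and 9.22% (from 12.9%) in these comparisons, in the same order. With the numbers of ythdf1-/- alone crossed, chosen after seeing the data, the block gave 8 higher and 4 lower for lysate in wild type, 1 and 9 for lysate in ythdf1-/-, 3 higher between genotype labels alone and 5 lower with lysate, 13 lower (from 8) for the lysate average, and 5 higher and 8 lower (from 3 and 2) for the genotype average. The crossing turns that -0.61 positive. The block then takes up more of the spread, so a rise in calls follows from that choice and supports no call. Calls over all genes rose with the crossing, to 31.8% (from 21.5%) for lysate in wild type and 24.8% (from 15.2%) in ythdf1-/-. They rose to 23.3% and 22.4% (from 16.2% and 12.9%) between genotype labels. For the lysate and genotype averages they were 43.5% and 36.1% (from 34.7% and 27.4%).

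After removing a GC and length trend, 5 members were higher and 3 lower with lysate in wild type, and 2 and 8 in ythdf1-/-. Between genotype labels 4 were higher alone and 5 lower with lysate, and 6 were higher and 5 lower in their average. Over all genes that removal called 27.7%, 24.5%, 25.7% and 22.2% in the 4 comparisons, and 37.0% in the genotype average. The block with that removal, also chosen after seeing the data, gave 4 and 3 for lysate in wild type, 2 and 7 in ythdf1-/-, 4 higher between genotype labels alone and 3 lower with lysate, and 6 and 4 in the genotype average. That block called 26.2%, 22.7%, 24.3% and 20.7% of all genes in the 4 comparisons, and 35.7% in the genotype average. With lysate in wild type, 4 were higher with a minimum of 6, with median centring or with no trend. There, 0 were lower with median centring, quantile normalization or no trend. Of all genes, 23.9% passed with that minimum, 21.3% with centring, 20.8% with quantile normalization and 20.4% with no trend. With only the groups compared, 5 were lower between genotype labels with lysate, while 19.2% of all genes passed.

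At 0.01 the counts were 1 and 0 for lysate in wild type, 2 lower in ythdf1-/-, 1 lower between genotype labels with lysate, 0 and 3 for the lysate average, and 0 and 1 for the genotype average. At 0.10 they were 9 and 2, 1 and 6 in ythdf1-/-, 3 higher between genotype labels alone and 5 lower with lysate, 7 and 13, and 5 and 9. Shares of all genes at 0.01 and 0.10 are not given here. No named call reversed under any alternative run. Depth per library is unknown, so the smallest detectable change cannot be set from counts.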
